A study of Mus musculus with 4 samples.

Results

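Expression of 51 genes of mitosis, the kinetochore and condensin was compared between 2 spleens with B cell leukaemia and 2 wild type spleens. The set was a list of 52 gene symbols chosen by known function. A gene was measured where a probe set carried its symbol as the only one, which held for 51 of the 52 and of 19297 genes in all; Ccnb1 was not analysed here. RNA from each spleen, 1 mouse per array, was measured on Affymetrix whole-transcript arrays, and values are on the log2 scale. Wild type mice were RBP-J flox/flox with unmodified Ren1d (Ren1d+/+). Leukaemic mice were RBP-J flox/flox with cre recombinase at both copies of the renin gene Ren1d (Ren1dcre/cre). All 4 mice thus carried the floxed RBP-J alleles and the 129Sv background, and cre was expressed from the renin locus rather than from a B cell gene. Wild type mice were females of 80 and 81 days with spleens of 0.12 g and 0.16 g. Leukaemic replicate 1 was a female of 107 days with a spleen of 0.7 g, and leukaemic replicate 2 a male of 93 days with a spleen of 0.47 g. Every leukaemic mouse was older and had a heavier spleen than every wild type mouse, so genotype, age and spleen size cannot be told apart. Sex was not balanced either, as leukaemic replicate 2 was the only male. Wild type replicate 2 stood apart from the other arrays: 18 of 18 exocrine pancreas genes measured were higher there than in wild type replicate 1, by a median of 4.93. The members' counts are therefore also given without it.

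Cells about to divide make a common set of transcripts in the G2 and M phases. Cyclins and their kinase Cdk1 start mitosis, condensin and topoisomerase II compact the chromosomes, and kinetochores tie each chromosome to spindle microtubules. The spindle checkpoint holds the cell in metaphase until all kinetochores are attached, after which the anaphase-promoting complex degrades securin and cyclin B. Most of these genes are kept silent in resting cells by the DREAM complex and are switched on by B-Myb and FoxM1, in part through a promoter element called CHR (cell cycle genes homology region). In an adult mouse spleen, dividing cells include erythroid precursors, activated lymphocytes and myeloid precursors, beside any leukaemic blasts.

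The mitosis genes were nearly all higher in leukaemic spleen, by amounts from close to 0 to above 2-fold. The median difference over the 51 genes was 0.62 on the log2 scale, a fold of 1.54, against -0.03 over all 19297 genes, and it was 0.85 without wild type replicate 2 and 0.43 without wild type replicate 1. Single differences ran from -0.03 (Ube2c) to 1.26 (Ttk), and 50 of the 51 were above 0, against 43.9% of all genes. Differences of at least 0.5 were found for 37 members, against 6.85% of all genes, and of at least 1 for 3, against 1.32%. The leukaemic arrays lay above both wild type arrays for 45 members, against 23.0% of all genes. Without wild type replicate 2 all 51 differences were above 0, 44 were at least 0.5, 14 were at least 1 and 51 had no overlap, against 55.6%, 5.60%, 1.33% and 43.2% of all genes. Without wild type replicate 1 the counts were 49, 20, 1 and 45, against 39.6%, 9.43%, 1.63% and 31.8%. Those that overlapped with all 4 arrays were Ccnb2, Ube2c, Pttg1, Birc5, Cenpf and Mki67. The values lay between 8.14 and 12.33, whereas the exocrine pancreas genes in the arrays other than wild type replicate 2 read 4.83 to 8.08 (median 6.78).

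**Figure D1:**
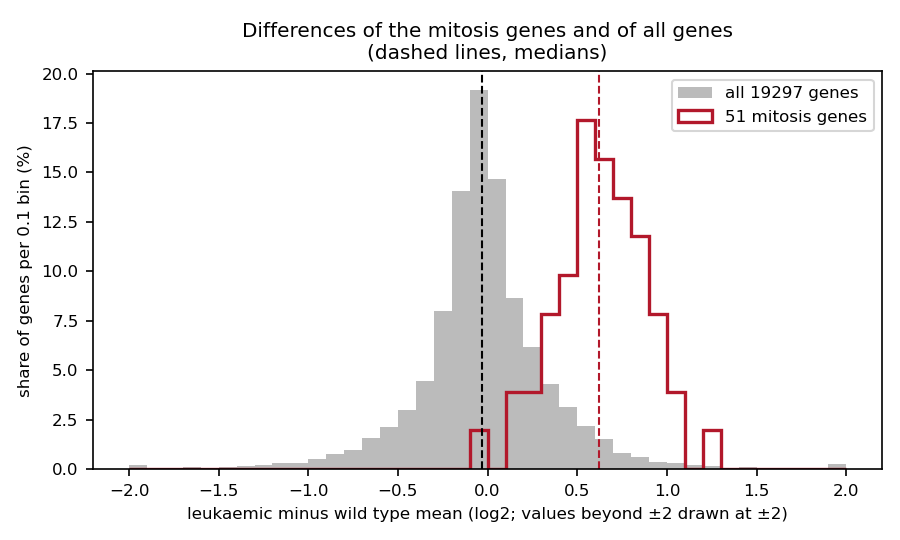
Share of genes (%, vertical axis) by leukaemic minus wild type difference in log2 units (horizontal axis, bins of 0.1), for all 19297 genes in grey and the 51 mitosis genes in red. The dashed lines mark the medians, -0.03 for all genes and 0.62 for the mitosis genes.

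Of the 51 genes 6 rose and 0 fell at a limma p adjusted over all genes under 0.05, against 1.43% of all genes that rose and 1.03% that fell. The 6 were Ttk, Bub1b, Bub1, Melk, Ncapg and Kif15. At an unadjusted limma p under 0.05, 37 members were higher and 0 lower, against 10.0% and 10.6% of all genes. The next members in order of p, Top2a and Ndc80, had limma adjusted p of 0.053 and 0.054. The calls depended on which mice were fitted, for all genes as for these. Without wild type replicate 2, 0 of all genes were called higher (0.00%), and without wild type replicate 1, 12 were (0.0622%), so that 0 members were called in either fit (limma adjusted p of the 6 from 0.145 to 0.151). The differences themselves stayed large there: that of Ttk was 1.11 without wild type replicate 1 and 1.41 without replicate 2, and that of Bub1 0.90 and 1.09. At an unadjusted limma p under 0.05, 21 members were higher without wild type replicate 1 and 44 without replicate 2, against 11.3% and 6.89% of all genes. Without leukaemic replicate 1, 3 members were called (Ttk, Bub1b and Top2a), against 1.46% of all genes called higher, and without leukaemic replicate 2, 14 were, against 2.33%. After quantile normalization 168 genes were called higher, with Ttk as the 1 member among them (limma adjusted p = 0.049).

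The 4 arrays stood in nearly the same order for each gene. For 43 of the 51 members wild type replicate 1 was lowest, followed by wild type replicate 2, leukaemic replicate 2 and leukaemic replicate 1, an order found in 4.89% of all genes. Genes of related processes often had it too: 53 of 102 other mitosis genes, listed further on, and 21 of 34 DNA replication genes. Age (80, 81, 93 and 107 days) and spleen weight (0.12, 0.16, 0.47 and 0.7 g) rose in the same order of mice. The part of either in the order was not tested. Wild type replicate 2 was above replicate 1 for 50 members, all but Mad2l1, against 55.6% of all genes, and the gap ranged from -0.02 to 0.80 with a median of 0.38. Leukaemic replicate 2 was below replicate 1 for 49 members, all but Top2a and Birc5, against 55.6% of all genes, with a median difference of -0.23. The leukaemic mice also differed in sex, age and spleen weight. For 10 members the gap between the wild type mice was larger than the difference between the groups, against 52.7% of all genes. The median gap from the higher wild type to the lower leukaemic array was 0.25.

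**Figure D2:**
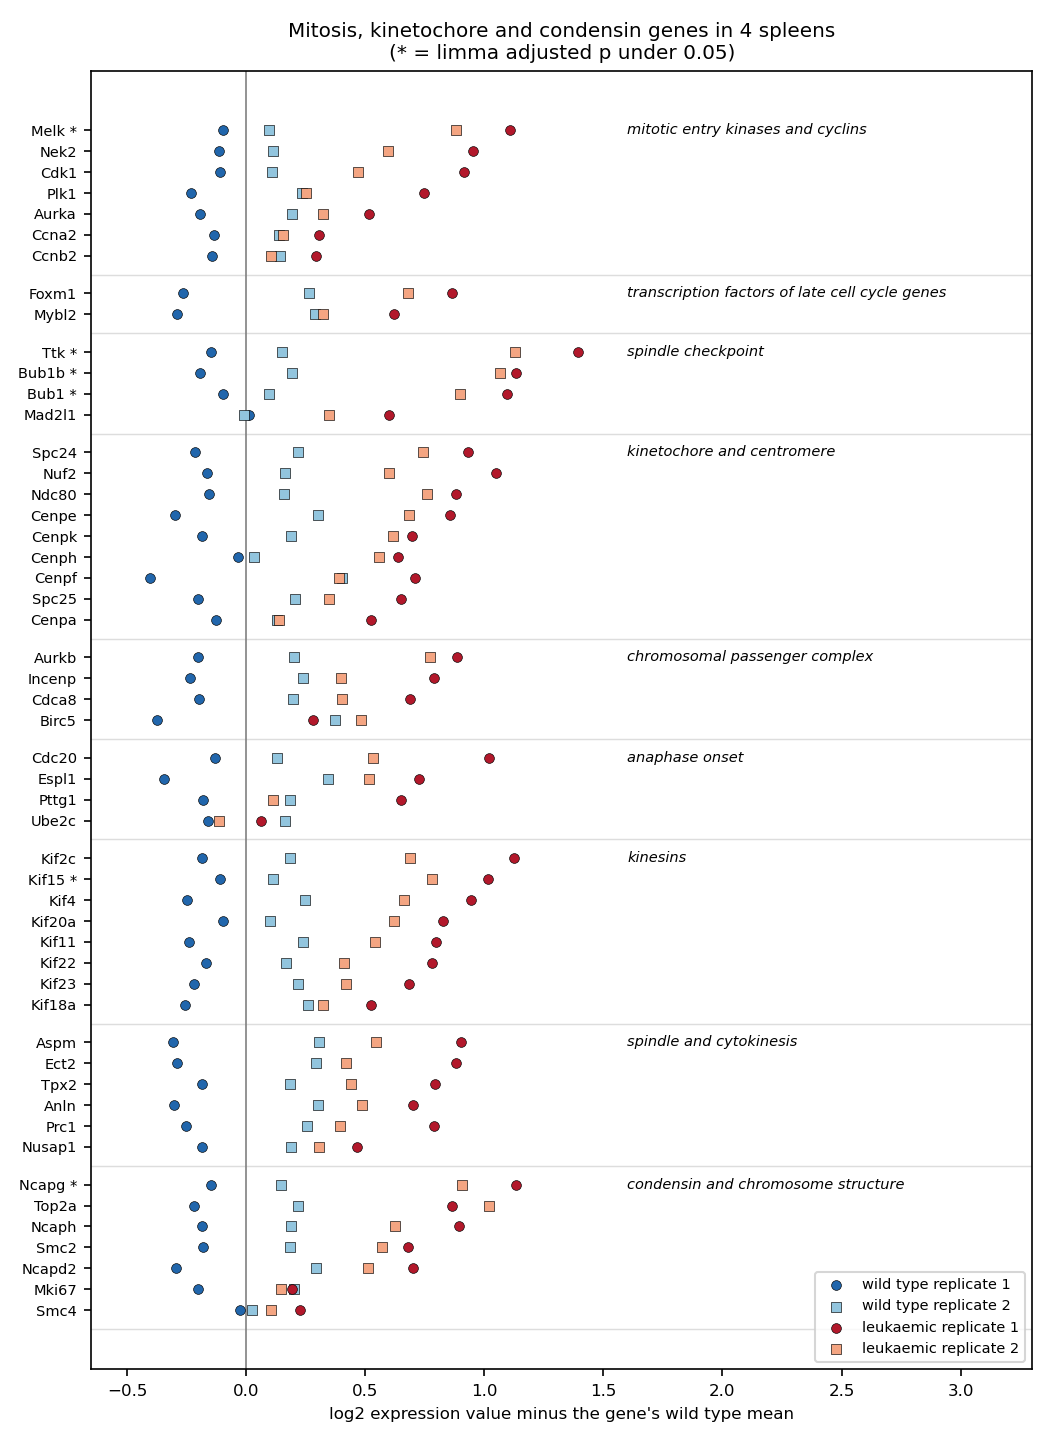
Log2 expression value of each of the 51 genes in each array, minus that gene's wild type mean (horizontal axis); genes are grouped by role and sorted by difference, and an asterisk marks a limma adjusted p under 0.05. Leukaemic points lie to the right of both wild type points for 45 genes, and wild type replicate 2 lies to the right of replicate 1 for 50.

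Markers of other cells also differed between the wild type mice. All 13 erythroid genes measured were higher in wild type replicate 2 than in replicate 1. Mean levels were 11.11 and 11.72 for wild type replicates 1 and 2, and 11.01 and 10.81 in leukaemic replicates 1 and 2, so the leukaemic spleens had the lower levels. Alas2, the erythroid enzyme of haem synthesis, read 12.24 and 12.65 in the wild type mice, against 11.86 and 11.95 in leukaemic spleen. Of the 13 erythroid and the 18 pancreas genes 0 were called. At an unadjusted limma p under 0.05, 7 erythroid genes were lower and 0 pancreas genes passed, against 10.6% of all genes lower. The part of either list in the gap between the wild type mice was not tested.

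The lists of other cell types had this order for 0 genes, apart from 5 of 18 precursor B cell genes. Precursor B cell genes had means of 8.91 and 8.74 in the wild type mice, against 10.79 and 10.89 in leukaemic replicates 1 and 2. In that list 12 of 18 rose and 0 fell. Among the rest Cd79a and Cd79b, the signalling chains of the B cell receptor, differed by 0.08 and -0.04. Over all genes 1.43% rose and 1.03% fell, and 10.0% were higher and 10.6% lower at an unadjusted limma p under 0.05. T cell genes were at 10.23 and 9.88 in the wild type mice, against 8.24 and 9.03 in leukaemic spleen, with 6 of 11 called lower. Neutrophil precursor genes were at 10.91 and 10.88 and at 9.62 and 10.31, with 2 of 13 called lower. Germinal centre genes were at 9.02 and 8.54 and at 7.99 and 8.49, with 0 of 6 called and 1 higher and 5 lower at an unadjusted limma p under 0.05. Megakaryocyte genes had a median difference of -0.71, with 1 of 6 called lower, and wild type replicate 2 above replicate 1 for 2 of the 6. Without wild type replicate 2 the median differences were 1.62 for precursor B cell genes, -1.76 for T cell genes and -0.26 for erythroid genes. With it they were 1.86, -1.47 and -0.54. In whole spleen, fewer cells of a type and less RNA per cell cannot be told apart.

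**Figure D3:**
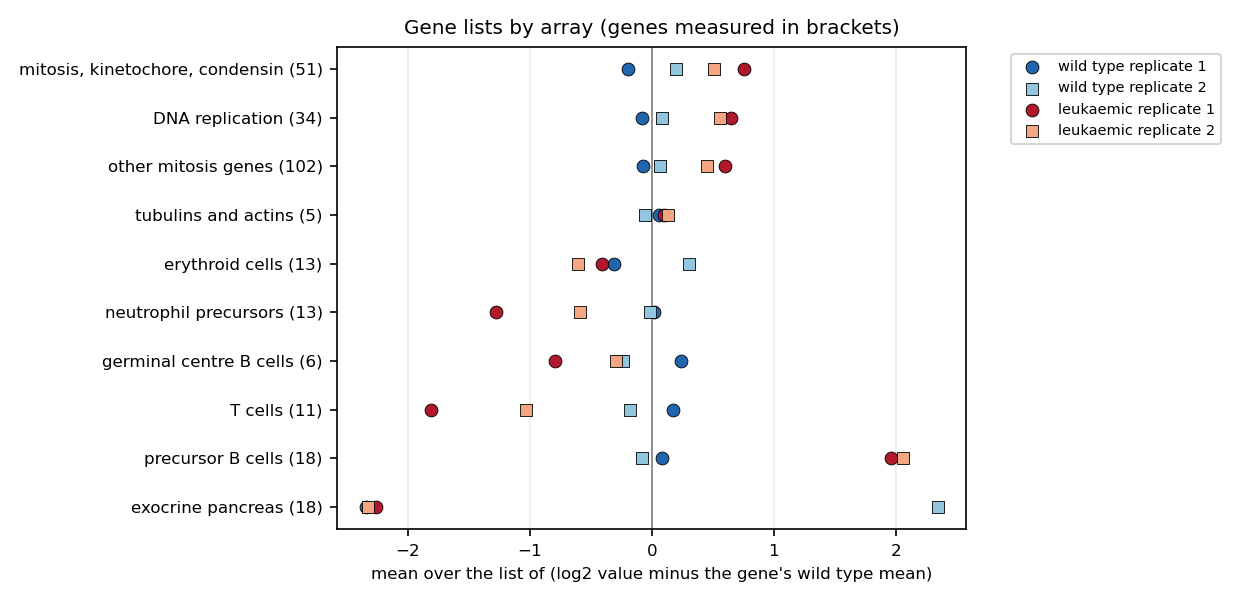
Mean over each gene list of the log2 value minus the gene's wild type mean (horizontal axis), by array, with the number of genes measured in brackets. The mitosis genes lie at -0.20 and 0.20 in the wild type mice and at 0.75 and 0.51 in leukaemic replicates 1 and 2, and erythroid and exocrine pancreas genes are higher in wild type replicate 2 as well.

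A larger share of member promoters than of other promoters held the CHR element and the CCAAT box. RefSeq promoter sequences (assembly GRCm38.p6, 250 bases before to 50 after the start) were found for 43 of the 51 members and for 15161 tested genes, and where a gene had several starts the one listed at the top was used. For 7 of the 43 (Aurka, Mybl2, Pttg1, Kif2c, Aspm, Ect2 and Ncapd2) that start lay over 100 bases inside the gene as RefSeq places it, so the sequence is that before an inner start; 0 of these are among the sequences shown. The CHR element, searched as TTTGAA on both strands, was present in 29 of the 43 members (67.4%) and in 15.1% of the tested genes. Its variant TTCGAA was present in 3 members (6.98%) and in 1.83% of tested genes. The CCAAT box, bound by the factor NF-Y and searched as CCAAT on both strands, was present in 30 members (69.8%) and in 38.3% of tested genes. E2F sites, searched on both strands as TTCCCGC and also as its variants, which were TTGGCGC as well as the forms TTCGCGC and then TTGCCGC, were present in 9 members (20.9%) and in 13.2% of tested genes. Each motif was counted by itself, also where matches overlapped. Over all 32851 promoter windows of the table the shares were 17.9% for TTTGAA, 1.56% for TTCGAA, 37.4% for CCAAT and 9.57% for the E2F sites.

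The CHR matches lay close to the start. Within 50 bases on either side, a window chosen after the matches were seen, TTTGAA was found in 26 of 43 members (60.5%) and in 3.79% of tested genes. Members with such a match had a median difference of 0.62 and 4 of 26 were called, and members without one had a median of 0.61 and 2 of 17 were called. Among all tested genes the median difference was 0.01 with the match and -0.03 without, and 4.52% and 1.36% were called higher. The members are among these genes. A match is a run of letters and was not shown to be a bound site.

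**Figure D4:**
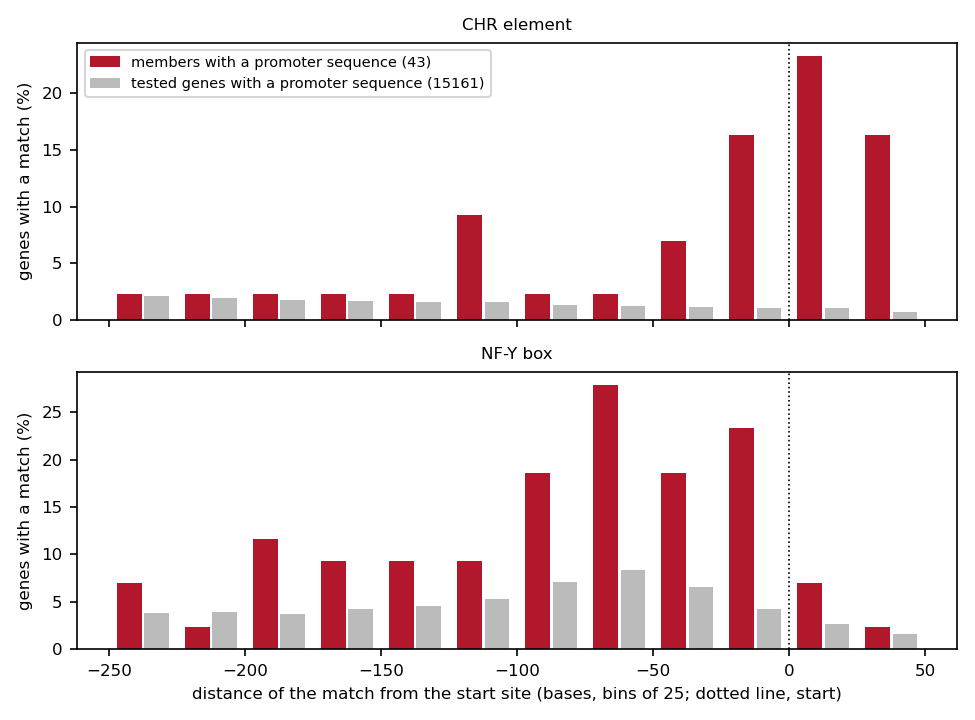
Share of genes (%, vertical axes) with a match to the CHR element (upper panel) or to the box bound by NF-Y (lower panel) by distance from the start site in bases (horizontal axis, bins of 25), for 43 members in red and 15161 tested genes in grey. CHR matches of the members are most frequent from 25 bases before to 50 after the start, in 16.3%, 23.3% and 16.3% of members per bin, and NF-Y box matches in the bin from -75 to -50, in 27.9%.

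Among the roles, the 4 spindle checkpoint members had the largest median difference, 1.05. Of these members 3 were called, against 1.43% of all genes called higher. Further checkpoint genes outside the member list are given below. Ttk, which encodes the checkpoint kinase Mps1 that recruits the other components to unattached kinetochores, read 8.14 and 8.44 in the wild type mice, against 9.68 and 9.42 in leukaemic replicates 1 and 2. It rose 2.40-fold (log2 difference 1.26, SE 0.17, limma adjusted p = 0.024), and its groups were separated by far more than either pair of replicates. Bub1b, which encodes BubR1, a subunit of the mitotic checkpoint complex, read 9.70 and 10.08 in the wild type mice, against 11.02 and 10.96 in leukaemic spleen (difference 1.10, SE 0.17, limma adjusted p = 0.033). Its leukaemic arrays were close to each other, while wild type replicate 2 was above replicate 1 by 0.38. Bub1, its kinase paralogue, read 9.80 and 9.997 in the wild type mice, against 11.00 and 10.80 in leukaemic spleen (difference 0.996, SE 0.15, limma adjusted p = 0.033). Mad2l1, the checkpoint protein Mad2 that binds Cdc20, was nearly equal in the wild type mice at 11.29 and 11.27 and read 11.88 and 11.63 in leukaemic spleen. The test was not passed (difference 0.47, SE 0.15, limma adjusted p = 0.14). It was the member without the gap between the wild type mice.

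The 3 called checkpoint genes each held a CHR or its variant just after the start, at bases 8 (Ttk), 41 (Bub1b) and 15 (Bub1, variant). Over the 300 bases, 30 of 43 members (69.8%) held either, called or not, against 16.7% of tested genes. Mad2l1, the checkpoint member that was not called, held neither, and no CCAAT box. The 30 bases around each match are shown 5′ to 3′ along the gene, from GRCm38.p6, with the match in capitals; TTCAAA is TTTGAA read on the other strand, and TTCGAA is its own complement.
Ttk (chr9:83834684-83834713, plus strand): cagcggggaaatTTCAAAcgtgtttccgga
Bub1b (chr2:118598231-118598260, plus strand): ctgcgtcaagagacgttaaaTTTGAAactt
Bub1 (chr2:127831828-127831857, minus strand): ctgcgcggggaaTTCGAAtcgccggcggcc
Ttk and Bub1 also held CCAAT boxes 28 and 65 bases and 42 and 68 bases before the start, and Bub1b held 1 at 113 bases. The variant TTCGAA also lay 188 bases before the start in Bub1b.

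Among the kinases and cyclins of mitotic entry, 1 of 7 was called, against 1.43% of all genes called higher. The median was 0.50. Melk, a kinase linked to mitosis and to progenitor cells, read 8.54 and 8.73 in the wild type mice, against 9.74 and 9.51 in leukaemic spleen, with no overlap (difference 0.99, SE 0.16, limma adjusted p = 0.033). Nek2, a centrosome kinase, read 9.21 and 9.44 and then 10.28 and 9.92 (difference 0.77, SE 0.18, limma adjusted p = 0.069). Cdk1, the central mitotic kinase, read 11.17 and 11.38 in the wild type mice, against 12.19 and 11.75 in leukaemic spleen. Its partners moved less: Ccna2, cyclin A2, differed by 0.23 (SE 0.16), and Ccnb2, cyclin B2, by 0.20 (SE 0.16, limma adjusted p = 0.59). Ccnb2 read 11.89 and 12.17 in the wild type mice, against 12.33 and 12.14 in leukaemic spleen, so that leukaemic replicate 2 lay below wild type replicate 2. Plk1 and Aurka, kinases of centrosome maturation, differed by 0.50 (SE 0.23) and 0.42 (SE 0.18). Neither had an overlap between groups, but the gaps were only 0.02 and 0.13.

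The transcription factors Foxm1 and Mybl2, which drive late cell cycle genes, were each higher without passing the test. Foxm1 read 8.95 and 9.48 in the wild type mice, against 10.08 and 9.89 in leukaemic spleen (difference 0.77, SE 0.20, limma adjusted p = 0.093). Mybl2, which encodes B-Myb, read 9.09 and 9.67 and then 10.001 and 9.70 (difference 0.47, SE 0.22, limma adjusted p = 0.30). In Mybl2 the gap of 0.58 between the wild type mice was larger than the group difference, and leukaemic replicate 2 was only just above wild type replicate 2.

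Kinetochore and centromere genes were higher as a body, with a median of 0.66. Of the 9, 0 were called and 7 were higher at an unadjusted limma p under 0.05, against 1.43% and 10.0% of all genes. Ndc80, the microtubule-binding subunit that gives its name to the outer kinetochore complex, read 8.88 and 9.19 in the wild type mice, against 9.91 and 9.79 in leukaemic spleen (difference 0.82, SE 0.16, limma adjusted p = 0.054). The other 3 subunits of that complex differed by 0.83 (Nuf2, SE 0.20), 0.84 (Spc24, SE 0.18) and 0.50 (Spc25, SE 0.19). Spc24 read 8.18 and 8.61 in the wild type mice, against 9.32 and 9.13 in leukaemic spleen (limma adjusted p = 0.066). Cenph and Cenpk, of the inner kinetochore, differed by 0.60 (SE 0.14) and 0.66 (SE 0.17), and the replicates of Cenph lay close together in both groups. Cenpe, the kinetochore kinesin, differed by 0.77 (SE 0.22), and Cenpf, a protein of the outer corona, by 0.55 (SE 0.27) with overlapping arrays. Cenpa, the histone variant that marks centromeres, had the smallest difference of the role: it read 10.96 and 11.22 in the wild type mice, against 11.62 and 11.23 in leukaemic spleen (difference 0.33, SE 0.18, limma adjusted p = 0.38).

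The chromosomal passenger complex corrects wrong attachments and later marks the cleavage plane. Of its 4 genes 0 were called, against 1.43% of all genes called higher. Aurkb, its kinase, read 10.82 and 11.22 in the wild type mice, against 11.91 and 11.79 in leukaemic spleen, with no overlap (difference 0.83, SE 0.18, limma adjusted p = 0.061). Its scaffold Incenp differed by 0.59 (SE 0.21), and Cdca8, borealin, by 0.55 (SE 0.19) from 9.34 and 9.74 to 10.23 and 9.94. Birc5, survivin, read 9.33 and 10.08 in the wild type mice, against 9.99 and 10.19 in leukaemic spleen (difference 0.38, SE 0.25, limma adjusted p = 0.47). Wild type replicate 2 lay above leukaemic replicate 1 there, and of the wild type gaps among the members only that of Cenpf (0.80) was larger than its 0.75.

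Genes of anaphase onset differed among themselves, with a median of 0.50 and 0 of 4 called, against 1.43% of all genes called higher. Cdc20, the activator of the anaphase-promoting complex, read 9.35 and 9.61 in the wild type mice, against 10.50 and 10.01 in leukaemic spleen (difference 0.78, SE 0.20, limma adjusted p = 0.090). Espl1, separase, which cleaves cohesin, read 8.33 and 9.02 and then 9.40 and 9.19 (difference 0.62, SE 0.24, limma adjusted p = 0.20). Pttg1, its inhibitor securin, differed by 0.38 (SE 0.22) with overlapping arrays. Ube2c, the ubiquitin-conjugating enzyme of the complex, read 10.72 and 11.04 in the wild type mice, against 10.94 and 10.77 in leukaemic spleen. It was the 1 member with a difference below 0 (-0.03, SE 0.17, limma adjusted p = 0.97), and its sign turned to 0.038 after median centring and to 0.14 and 0.06 without wild type replicate 2 and without leukaemic replicate 2. The bases from 150 to 1 before the start are shown for Cdc20 and, as the member of largest p, for Ube2c, with CHR (TTTGAA or TTCAAA) and CCAAT (or ATTGG) matches in capitals, so that promoters of members with unlike differences can be set side by side.
Cdc20 (chr4:118437344-118437493, minus strand): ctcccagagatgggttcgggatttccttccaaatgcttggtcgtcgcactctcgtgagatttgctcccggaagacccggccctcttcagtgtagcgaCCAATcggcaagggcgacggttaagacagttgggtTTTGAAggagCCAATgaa
Ube2c (chr2:164769779-164769928, plus strand): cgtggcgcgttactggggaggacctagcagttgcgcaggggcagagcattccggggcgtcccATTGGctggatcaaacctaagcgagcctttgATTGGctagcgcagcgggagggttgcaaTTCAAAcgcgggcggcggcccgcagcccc
Each holds a CHR near the start, 18 bases before it in Cdc20 and 29 in Ube2c. In the Ube2c stretch 2 CCAAT boxes lie upstream of the CHR, at 57 and 88 bases, with 4 more beyond the bases shown, and in Cdc20 1 lies upstream at 53 bases and 1 between the CHR and the start at 8 bases.

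All 8 kinesins were higher with no overlap between groups, against 23.0% of all genes. Their median was 0.70, and 1 was called, against 1.43% of all genes called higher. Kif15, a spindle kinesin that keeps the poles apart, read 9.64 and 9.86 in the wild type mice, against 10.76 and 10.53 in leukaemic spleen (difference 0.90, SE 0.16, limma adjusted p = 0.043). Kif11, the kinesin Eg5 that acts beside it, differed by 0.67 (SE 0.20, limma adjusted p = 0.13). Kif20a and Kif23, motors of the midzone and of cytokinesis, differed by 0.72 (SE 0.15) and 0.55 (SE 0.19), and Kif20a read 9.77 and 9.97 and then 10.70 and 10.49. Kif2c, the microtubule depolymerase MCAK, differed by 0.91 (SE 0.20, limma adjusted p = 0.068). The chromosome-bound motors Kif4 and Kif22 differed by 0.80 (SE 0.20) and 0.60 (SE 0.19). Kif18a, which damps chromosome movements at the metaphase plate, read 8.76 and 9.28 in the wild type mice, against 9.55 and 9.35 in leukaemic spleen, with the smallest difference of the role (0.42, SE 0.20, limma adjusted p = 0.30). The upstream 150 bases of Kif15, the called kinesin, are shown with the same capitals.
Kif15 (chr9:122950931-122951080, plus strand): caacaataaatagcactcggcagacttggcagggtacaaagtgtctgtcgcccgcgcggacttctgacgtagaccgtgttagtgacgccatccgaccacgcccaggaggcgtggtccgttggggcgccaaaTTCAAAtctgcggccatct
The match shown lies 19 bases before the start, and the stretch holds no CCAAT. Another CHR match, not shown, lies 234 bases before the start.

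Spindle and cytokinesis genes were all higher with no overlap, against 23.0% of all genes. However, 0 of 6 were called, against 1.43% of all genes called higher (median 0.60). Tpx2, which activates Aurora A on the spindle, read 9.83 and 10.20 in the wild type mice, against 10.81 and 10.45 in leukaemic spleen (difference 0.62, SE 0.19, limma adjusted p = 0.14). Aspm, which acts at spindle poles, read 9.05 and 9.66 and then 10.26 and 9.90 (difference 0.72, SE 0.23, limma adjusted p = 0.15). Ect2, Anln and Prc1, which set up the cleavage furrow and the midzone, differed by 0.65 (SE 0.24), 0.59 (SE 0.22) and 0.59 (SE 0.22). Nusap1, a microtubule bundler, read 10.90 and 11.28 in the wild type mice, against 11.56 and 11.40 in leukaemic spleen (difference 0.39, SE 0.17, limma adjusted p = 0.27). The median gap between the wild type mice was 0.55 in this role, close to its median group difference.

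Condensin and chromosome structure genes ranged in difference from 0.17 to 1.02, with a median of 0.63. Of the 7, 1 was called, against 1.43% of all genes called higher. Ncapg, a subunit of condensin I, read 9.59 and 9.89 in the wild type mice, against 10.87 and 10.65 in leukaemic spleen, and rose 2.03-fold (difference 1.02, SE 0.17, limma adjusted p = 0.036). Its condensin I partners Ncaph and Ncapd2 differed by 0.76 (SE 0.18) and 0.61 (SE 0.21). Of the ATPase pair that condensins I and II share, Smc2 differed by 0.63 (SE 0.17) and Smc4 by 0.17 (SE 0.14). Smc4 read 11.23 and 11.28 and then 11.48 and 11.36, with little spread in either group. Top2a, topoisomerase II alpha, read 10.71 and 11.15 in the wild type mice, against 11.79 and 11.95 in leukaemic spleen (difference 0.94, SE 0.18, limma adjusted p = 0.053). The other Top2a probe set was dim, at 5.95 and 5.34 in the wild type mice, against 6.60 and 6.95 in leukaemic spleen, all within the range of the pancreas genes above. Mki67, the coat protein of mitotic chromosomes that is widely used as a proliferation marker, read 11.93 and 12.33 in the wild type mice, against 12.33 and 12.28 in leukaemic spleen (difference 0.17, SE 0.17, limma adjusted p = 0.69). Without wild type replicate 1 its difference was -0.03.

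Promoters of this role are shown for Ncapg, Top2a and Smc2, the members with a CHR before the start and the smallest p, over the same 150 bases and with the same capitals.
Ncapg (chr5:45669775-45669924, plus strand): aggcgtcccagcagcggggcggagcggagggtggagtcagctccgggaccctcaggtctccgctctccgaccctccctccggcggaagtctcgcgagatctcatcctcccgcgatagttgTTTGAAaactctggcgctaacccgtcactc
Top2a (chr11:99024190-99024339, minus strand): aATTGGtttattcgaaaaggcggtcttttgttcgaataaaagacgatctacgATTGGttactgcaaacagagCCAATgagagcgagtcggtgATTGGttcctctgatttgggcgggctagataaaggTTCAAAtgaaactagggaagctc
Smc2 (chr4:52439071-52439220, plus strand): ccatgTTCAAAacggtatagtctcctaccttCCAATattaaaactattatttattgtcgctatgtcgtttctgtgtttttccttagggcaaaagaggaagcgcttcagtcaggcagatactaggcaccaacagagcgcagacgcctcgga
The CHR shown lies 30 bases before the start in Ncapg, 23 in Top2a and 145 in Smc2. Another, not shown, lies 179 bases before the start in Top2a and 27 after it in Smc2. The Top2a stretch also holds 4 CCAAT matches in either orientation, and the variant TTCGAA, left in lower case, at 140 and 120 bases.

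Other genes of the same processes were examined from lists written by function. Of 31 further kinetochore and checkpoint genes 7 rose and 0 fell (median difference 0.61). Trip13, an ATPase that remodels Mad2, differed by 1.32 (SE 0.16), and the centromere proteins Cenpw and Cenpi by 1.25 (SE 0.20) and 1.13 (SE 0.15). Bub3 and Mad1l1, of the checkpoint, differed by 0.38 (SE 0.15) and 0.45 (SE 0.18) and were not called. Of 22 further spindle, kinesin and cytokinesis genes 4 rose and 0 fell (median 0.66). Cep55, needed for the final cut between daughter cells, read 8.38 and 7.92 in the wild type mice, against 10.32 and 10.06 in leukaemic spleen (difference 2.04, SE 0.20, limma adjusted p = 0.0086), and unlike most members it was higher in wild type replicate 1. Cenpj and Kif20b differed by 1.02 (SE 0.16) and 1.01 (SE 0.14). Of 16 further condensin and cohesin genes 1 rose and 0 fell (median 0.43): Ncapg2, a condensin II subunit, differed by 1.04 (SE 0.18). Of 33 further regulators of entry and exit 4 rose and 0 fell (median 0.41). Pbk, a mitotic kinase, differed by 1.16 (SE 0.18), Lin9, a subunit of the MuvB core that binds the CHR, by 1.14 (SE 0.13), and Cks1b, a Cdk adaptor, by 0.84 (SE 0.15). Over these 4 lists together 16 of 102 rose, against 1.43% of all genes, and 86 did not pass. Differences were above 0 for 93 and below 0 for 9. At an unadjusted limma p under 0.05, 69 were higher and 2 lower, against 10.0% and 10.6% of all genes. The 2 were Wapl, of the condensin and cohesin list (difference -0.59, SE 0.14), and Cdc14b, of the entry and exit list (difference -0.77, SE 0.19). The median gap between the wild type mice was 0.10, against 0.38 for the 51 members. Without wild type replicate 2 the medians of the 4 lists in the order given were 0.72, 0.84, 0.44 and 0.41.

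The neighbouring steps of the cell cycle were set beside them. Of 34 DNA replication genes 8 rose and 0 fell, against 1.43% and 1.03% of all genes. Their median difference was 0.58 and their median wild type gap 0.16. Prim1, Chaf1b and Pole differed by 1.13 (SE 0.15), 1.13 (SE 0.17) and 1.09 (SE 0.15). The replication median was 0.64 without wild type replicate 2. Among 25 G1 cyclins, E2F factors and cell cycle inhibitors 2 rose and 1 fell (median 0.32). E2f7 and E2f3 differed by 1.34 (SE 0.23) and 1.12 (SE 0.17), and Ccnd1, cyclin D1, read 10.08 and 9.93 in the wild type mice, against 8.97 and 9.15 in leukaemic spleen (difference -0.95, SE 0.15, limma adjusted p = 0.033). Of 5 tubulin and actin genes 0 were called (median 0.24), with 1 higher at an unadjusted limma p under 0.05, against 10.0% of all genes. Tubg1 differed by 0.37 (SE 0.14) and Tuba1a by 0.28 (SE 0.16).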

How the data were processed

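Samples were grouped by title, as 2 wild type and 2 leukaemic mice with 1 array each. The authors deposited log2 expression values, and RMA, R 2.15.0 and limma 3.12.1 are named in the submitters' processing notes; their settings were not given in the sources used here. RMA is meant to equalise intensity distributions across arrays, so values are relative to the other genes of an array. Medians of the deposited values still differed, at 8.03 and 8.02 in wild type replicates 1 and 2 and 7.96 in both leukaemic arrays. Results after centring and after quantile normalization are given below. Scan batches and detection calls were not analysed here, and the number of arrays limits the precision.

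Of 23309 probe sets, 20729 carried a single gene symbol. For 804 of 19297 genes there was more than 1 probe set, and the one with the highest 4-array mean was kept once all had been fitted, ahead of the adjustment. Symbols were checked against RefSeq by Entrez identifier (20686 matched, 0 changed). The comparison used limma 3.58.1 (lmFit and eBayes, R 4.3.3) without covariates and with dim probe sets kept, with Benjamini-Hochberg adjustment over 19297 genes and a threshold of 0.05. The fit had 2 residual and 4.83 prior degrees of freedom, and an exact permutation test of 2 against 2 mice cannot go below a two-sided p of 0.333. Each SE is the moderated standard error. The script was tested on simulated data. With a simulated log2 difference of 0.5, 0 of 50 genes were called, and with a difference of 1, 11 of 50 were (22%). A gene that was not called may therefore still differ.

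The members and all gene lists were chosen with earlier results of these data known, so list counts are descriptions, without a set test. Named with the values of every array were all called members, the members of smallest and largest p in each role and those below 0; from other lists, the called genes of largest change. A few further members, genes of the other lists and cell type markers were added for context. Alternatives covered centring, quantile normalization, dim probe sets, the variance prior, the choice of probe set, a minimum fold change, a replicate block and each mouse left out. Promoters and motifs were read with Python 3.11.15.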

Additional observations from a re-analysis of the deposited data

How the results depend on the processing

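The median member difference kept its sign in all alternatives run, from 0.43 (without wild type replicate 1) to 0.85 (without wild type replicate 2), against 0.62. Counts of calls moved more. After quantile normalization 1 member was called, with 168 genes higher and 93 lower among all. A variance prior with trend and robust estimation called 15 members, with 509 genes higher and 456 lower. The correlation of deviations of same-numbered mice across genes was -0.09, which cannot show whether they shared any handling. The number was not used as a pairing in the main fit. With the replicate number as a block 23 members were called, with 785 genes higher and 908 lower. With a minimum log2 fold change of 0.5, 0 members were called, with 48 genes higher and 7 lower. In that test 9 members and 732 of all genes had an unadjusted limma p under 0.05, against 37 members in the main fit with no minimum. Leaving out 1 mouse gave between 0 and 14 member calls, 0 to 450 genes higher and 0 to 593 lower; the lone mouse is assumed to vary like the other group, and the prior degrees of freedom that limma estimated were 2.79 when a wild type mouse was left out and unbounded for a leukaemic mouse. Median centring gave 350 higher and 147 lower against 276 and 199, and 8 members. The dim filter and the other choices of probe set gave 6 to 8 member calls. Members called lower were 0 in every alternative. Among members the sign turned for Ube2c (0.038 after centring, 0.06 without leukaemic replicate 2, and -0.19 to 0.14 over the mice left out) and Mki67 (-0.031 to 0.37, the lowest without wild type replicate 1), and for no other. The cause of these changes was not tested.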
